A study of Homo sapiens with 6 samples.

Results

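The genes of cholesterol and fatty acid synthesis were followed through 6 RNA libraries of Cal27 cells, an established human cell line derived from a tongue squamous cell carcinoma. The set holds 29 genes named for their place in these pathways, and it was chosen with earlier results of these data known. Of these, 28 were found among the 57820 genes of the count matrix by their Ensembl identifier, and all 28 were abundant enough in these libraries to enter the test of 16396 genes. The identifier of ACACA, acetyl-CoA carboxylase, in the annotation used for names was not matched in the matrix, so ACACA was not analysed here.

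The study asked what cornulin (CRNN), an S100 fused-type protein of differentiating squamous epithelium, does to the transcriptome of these cells. CRNN cells were transduced with a lentivirus carrying the Cornulin construct (genotype Cornulin overexpression), GFP cells with a lentivirus carrying the GFP vector (genotype GFP Expressing), and untreated Cal27 cells had the genotype WT. Each group had 2 replicate libraries, made from total RNA with a stranded kit, and all libraries carry the label batch 1. Transduced cells received polybrene at 8 µg/ml and were harvested after 48 h. For untreated cells the labels give neither, so transduction, polybrene and harvest time cannot be told apart in comparisons with them. All cells grew in medium with fetal bovine serum. The labels do not give the promoter of the vectors or the level of the protein.

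Cholesterol is built from acetyl-CoA through mevalonate, isoprenoid diphosphates, squalene and lanosterol. When the endoplasmic reticulum is poor in sterol, the SREBP transcription factors are carried to the Golgi, cleaved and sent to the nucleus, where SREBP2 mainly drives the sterol genes and SREBP1 mainly the fatty acid genes. INSIG proteins hold the SREBPs back when sterol is plentiful. SREBPs bind sterol regulatory elements in promoters, usually beside sites of NF-Y and Sp1. Carcinoma cells of squamous epithelium, like other dividing cells, use the products for membranes.

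The promoters of the members on which the results turn are shown because the sterol genes are known to share control elements there. Each sequence is the 250 bases before the start of transcription from RefSeq (GRCh38.p14), written 5′ to 3′ on the strand of the gene. Capitals mark the 8-letter core CACNCCAC of the sterol regulatory element and the NF-Y box CCAAT, on either strand. HMGCS1 lies at chr5:43313413-43313662 (minus strand), INSIG1 at chr7:155297628-155297877 (plus), MSMO1 at chr4:165327419-165327668 (plus), STARD4 at chr5:111512536-111512785 (minus) and IDI1 at chr10:1048887-1049136 (minus). These are the 5 members whose level in untreated replicate 1 lay farthest above the other libraries. SREBF2, at chr22:41832855-41833104 (plus), was the member with the full 9-letter element TCACNCCAC, and FADS2, at chr11:61815953-61816202 (plus), was the member farthest below. Where RefSeq gives several starts, the window with the most matches is shown.
HMGCS1: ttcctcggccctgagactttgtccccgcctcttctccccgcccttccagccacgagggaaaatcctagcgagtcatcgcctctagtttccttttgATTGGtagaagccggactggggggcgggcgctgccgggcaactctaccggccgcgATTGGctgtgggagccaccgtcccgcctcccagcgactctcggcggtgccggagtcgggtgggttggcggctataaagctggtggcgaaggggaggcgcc
INSIG1: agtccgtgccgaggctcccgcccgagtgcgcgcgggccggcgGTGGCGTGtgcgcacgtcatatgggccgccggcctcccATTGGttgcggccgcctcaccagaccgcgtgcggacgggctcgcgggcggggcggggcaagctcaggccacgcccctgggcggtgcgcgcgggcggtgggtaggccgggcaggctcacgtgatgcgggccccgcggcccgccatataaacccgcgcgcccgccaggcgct
MSMO1: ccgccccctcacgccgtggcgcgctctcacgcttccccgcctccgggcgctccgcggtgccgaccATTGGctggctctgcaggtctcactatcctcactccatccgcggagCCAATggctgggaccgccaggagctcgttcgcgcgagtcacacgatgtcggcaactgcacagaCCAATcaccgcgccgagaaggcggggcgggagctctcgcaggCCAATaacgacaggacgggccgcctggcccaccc
STARD4: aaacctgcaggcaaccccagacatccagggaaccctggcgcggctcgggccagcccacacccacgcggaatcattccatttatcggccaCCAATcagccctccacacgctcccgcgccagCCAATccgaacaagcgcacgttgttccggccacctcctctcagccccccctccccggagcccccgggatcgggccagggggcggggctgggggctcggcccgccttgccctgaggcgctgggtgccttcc
IDI1: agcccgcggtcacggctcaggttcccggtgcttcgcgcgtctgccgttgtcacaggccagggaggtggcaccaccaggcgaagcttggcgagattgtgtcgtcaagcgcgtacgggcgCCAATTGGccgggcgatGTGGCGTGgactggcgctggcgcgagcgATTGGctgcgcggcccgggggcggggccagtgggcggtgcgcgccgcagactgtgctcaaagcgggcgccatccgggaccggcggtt
SREBF2: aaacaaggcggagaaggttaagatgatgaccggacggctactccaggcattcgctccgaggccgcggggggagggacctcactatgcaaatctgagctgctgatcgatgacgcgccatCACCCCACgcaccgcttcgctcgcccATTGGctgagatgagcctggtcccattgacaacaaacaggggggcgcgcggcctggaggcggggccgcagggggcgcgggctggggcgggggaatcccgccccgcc
FADS2: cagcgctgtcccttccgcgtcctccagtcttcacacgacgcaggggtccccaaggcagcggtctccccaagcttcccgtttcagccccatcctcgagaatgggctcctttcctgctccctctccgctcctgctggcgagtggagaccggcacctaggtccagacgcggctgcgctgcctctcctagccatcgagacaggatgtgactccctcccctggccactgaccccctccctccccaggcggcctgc

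NF-Y boxes were found in most of the members' windows and the sterol core in few, each at a higher share than over all genes. Of the 29 members, 25 had a window in RefSeq, and 19 of them (76%) held CCAAT, against 37% of 27305 genes with windows of the same length. The Sp1 box GGGCGG was found in 24 members (96%), against 46.2% of genes. The 9-letter element was found in 1 member (4%) and 1.09% of genes. The shorter core, searched after that count was seen and contained in the longer form, was found in 6 members (24%) and 5.89% of genes. The members with the core were ACACA, IDI1, INSIG1, SC5D, SCD and SREBF2. A match is a run of letters and not a measured site. A gene was counted if any of its windows held a match, with 35116 windows for the 27305 genes. Genes with more starts thus had more bases searched, and members were not matched to other genes in this. Among members with windows whose level in untreated replicate 1 was at least 1.5 times the median of the other 5 libraries, 9 of 10 held CCAAT, and among the remaining measured members 9 of 14 did. The Sp1 box was in 10 of 10 and 13 of 14, the shorter core in 3 and 2, and the 9-letter element in 0 and 1. This split was made after the values of that library were seen, the counts are small, and no difference was tested.

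Library totals ranged from 11817105 to 28041227 counts. The level of a gene is its CPM, its reads scaled to a common library size adjusted by TMM, so 3 counts correspond to between 0.115 and 0.239 CPM. CRNN itself had 964 and 1028 CPM in the CRNN libraries and between 2.08 and 3.51 CPM in the other 4. Untreated replicate 1 stood apart from the rest: of 11729 well-expressed genes, 110 were over 4-fold above every other library there, against at most 8 elsewhere. Squamous epithelial markers (KRT5, KRT14, TP63 and 5 more, 8 of 8 in the matrix) summed to between 3950 and 6162 CPM. Single markers varied more than the sum: of the 8, 2 were highest and 1 lowest in untreated replicate 1. There KRT17 was at 10.25-fold and CDH1 at 2.59-fold the median of the other 5 libraries, and KRT14 at 0.326-fold and TP63 at 0.512-fold. Markers of adipocytes, a lipid-making cell, summed to at most 2.32 CPM, fibroblast markers to at most 9.10 and immune markers to at most 9.61. ALB, TTR and CYP7A1, which define hepatocytes, had 0 counts in all libraries, and the 5 hepatocyte markers summed to at most 9.09 CPM. Endothelial markers, of which 3 of 4 were in the matrix, summed to 53.0 CPM in untreated replicate 1 and to between 8.05 and 14.0 in the other libraries. Of these, CDH5 made 49.9 CPM in that library and VWF 3.06 CPM, for each its highest level. KDR, which defines the type, had at most 1 count in any library. The part of these endothelial markers in the values of that library was not tested.

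The members differed widely in abundance. Per kilobase of merged exons, as the mean over the 6 libraries, SCD, the stearoyl-CoA desaturase, stood at 152 CPM per kb, FASN at 66.0, INSIG1 at 42.9, SREBF1 at 37.5 and ACLY at 36.3. The least abundant per kilobase were FADS2 at 0.850 CPM per kb, SC5D at 1.21, ELOVL6 at 1.22, HSD17B7 at 1.35 and CYP51A1 at 1.39. Some levels are uncertain because of neighbours. Exons of ACAT2, CYP51A1, MVK and SREBF1 overlap those of the protein-coding genes TCP1, AKAP9, MMAB and RAI1 on the opposite strand, FADS1 and FADS2 overlap each other, and TM7SF2 and FADS2 overlap VPS51 and FEN1 on the same strand. HSD17B7 had a pseudogene, HSD17B7P2, with 188 counts over all libraries.

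The clearest pattern was not between groups but in 1 library: untreated replicate 1 held many sterol genes at higher levels than any other library. Of the 28 members, 18 had their highest level there (64.3%), against 27.1% of all tested genes. The fold over the median of the other 5 libraries was at least 1.5 for 11 members (39.3%, against 16.4% of all tested genes) and below 1 for 7. HMGCS1, INSIG1 and MSMO1 were over 2-fold above every other library, which held for 3.49% of all tested genes. In untreated replicate 2, by contrast, no member reached 1.5-fold (4.4% of all tested genes did), and 20 of the 28 lay within the range of the 4 transduced libraries, with 4 above it (12.4% of all tested genes). In untreated replicate 1, 18 lay above that range (28.1% of all tested genes). The members of this library's pattern were described after their values were seen and were given no test.

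**Figure D1:**
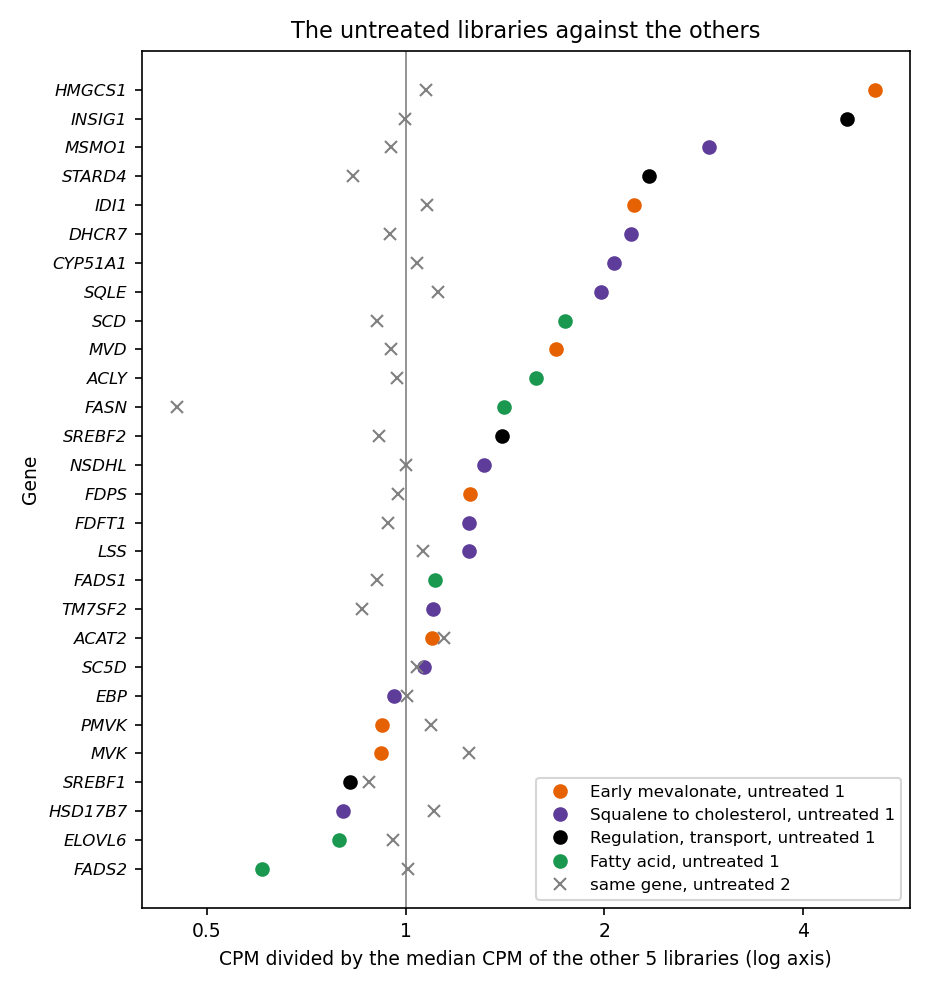
Level of each measured member in the untreated libraries, as CPM divided by the median CPM of the other 5 libraries (horizontal log axis), ranked by untreated replicate 1. Coloured points are untreated replicate 1 by role of the gene, and crosses are untreated replicate 2. HMGCS1 reaches 5.14-fold and INSIG1 4.66-fold in replicate 1, while every cross lies under 1.5.

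The early enzymes turn acetyl-CoA into farnesyl diphosphate. HMGCS1, which makes HMG-CoA (chromosome 5, 43287470 to 43313512 in GRCh38), had 32.0 and 33.7 CPM with CRNN, 28.1 and 40.6 with GFP and, untreated, 173 and 36.2. IDI1, which interconverts the isoprenoid diphosphates (chromosome 10, 1039152 to 1049119), had 28.7 and 33.8 CPM with CRNN, 21.1 and 29.7 with GFP and, untreated, 65.9 and 31.95. In both genes untreated replicate 1 was above all other libraries, whose values lay close to each other. MVD, the decarboxylase of mevalonate diphosphate, had 32.1 and 30.5 CPM with CRNN, 39.0 and 25.7 with GFP and, untreated, 51.7 and 30.6. FDPS, which makes farnesyl diphosphate, had 69.2 and 71.0 CPM with CRNN, 82.7 and 52.8 with GFP and, untreated, 86.8 and 69.2. For both genes untreated replicate 1 was highest and GFP replicate 2 lowest, and for FDPS the GFP replicates were farther apart than the untreated ones. ACAT2, the acetoacetyl-CoA thiolase, lay between 53.0 and 73.2 CPM. The mevalonate kinase MVK ranged from 24.5 to 37.3 CPM, with its highest level in GFP replicate 1. PMVK, the next kinase, stayed between 5.51 and 6.65 CPM. The excess in untreated replicate 1 was therefore unequal along this stretch: 5.14-fold for HMGCS1 and 2.22-fold for IDI1, but 0.917-fold for MVK and 0.921-fold for PMVK.

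The second stretch leads from farnesyl diphosphate through squalene and lanosterol to cholesterol. MSMO1, the sterol C4-methyl oxidase (chromosome 4, 165327667 to 165343164), had 31.0 and 41.5 CPM with CRNN, 27.4 and 26.1 with GFP and, untreated, 84.8 and 29.5. DHCR7, the last reductase of the Kandutsch-Russell route (chromosome 11, 71428193 to 71452868), had 115 and 105 CPM with CRNN, 158 and 95.5 with GFP and, untreated, 239 and 109. SQLE, squalene epoxidase (chromosome 8, 124998497 to 125022283), had 51.6 and 63.1 CPM with CRNN, 57.9 and 55.4 with GFP and, untreated, 114 and 64.9. For each of these enzymes untreated replicate 1 was again the highest library. CYP51A1, the lanosterol demethylase, had 5.03 and 3.83 CPM with CRNN, 6.13 and 3.99 with GFP and, untreated, 10.4 and 5.24. In untreated replicate 1 FDFT1, the squalene synthase, and LSS, the lanosterol synthase, were only slightly higher, at 1.25-fold the median of the other libraries each. NSDHL, which acts beside MSMO1 in removing the C4 methyl groups, was at 1.31-fold, TM7SF2, a sterol reductase, at 1.10-fold and SC5D, the lathosterol desaturase, at 1.07-fold. EBP, the sterol isomerase, and HSD17B7, the ketosteroid reductase, were not higher there, at 0.962-fold and 0.804-fold.

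The regulators differed among themselves. INSIG1, which retains SREBP in the endoplasmic reticulum and is itself a classic SREBP target (chromosome 7, 155297776 to 155310235), had 89.1 and 99.5 CPM with CRNN, 103 and 87.3 with GFP and, untreated, 462 and 99.2. STARD4, a soluble carrier of cholesterol (chromosome 5, 111496033 to 111512590), had 25.3 and 26.0 CPM with CRNN, 19.4 and 30.2 with GFP and, untreated, 58.9 and 21.7. Both were highest in untreated replicate 1, whereas untreated replicate 2 lay within the transduced range for INSIG1 and STARD4. SREBF2, the gene of SREBP2, had 126 and 126 CPM with CRNN, 149 and 119 with GFP and, untreated, 176 and 115. SREBF1, the gene of SREBP1, went the other way and was lowest in the untreated pair, with 325 and 311 CPM with CRNN, 311 and 373 with GFP and, untreated, 257 and 274. These are gene totals, so the isoforms of SREBF1 are not separated, and nuclear SREBP was not measured.

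The fatty acid genes did not share 1 pattern. SCD, which makes oleate and palmitoleate (chromosome 10, 100347233 to 100364826), had 692 and 763 CPM with CRNN, 628 and 816 with GFP and, untreated, 1209 and 689. ACLY, which supplies cytosolic acetyl-CoA from citrate, had 174 and 188 CPM with CRNN, 181 and 142 with GFP and, untreated, 276 and 175. Both followed the sterol genes in being highest in untreated replicate 1. FASN, the fatty acid synthase (chromosome 17, 82078338 to 82098294), had 502 and 472 CPM with CRNN, 894 and 796 with GFP and, untreated, 708 and 319, so that both GFP libraries were highest and untreated replicate 2 lowest. FADS2 and FADS1 are desaturases of polyunsaturated fatty acids. FADS2 had its lowest level in untreated replicate 1, 5.46 CPM against 8.51 to 11.8 in the other libraries. FADS1 was at 1.11-fold the median of the other libraries there and lay between 81.2 and 92.8 CPM throughout. ELOVL6, which extends palmitate, ranged from 6.18 CPM in GFP replicate 1 to 12.1 in GFP replicate 2.

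**Figure D2:**
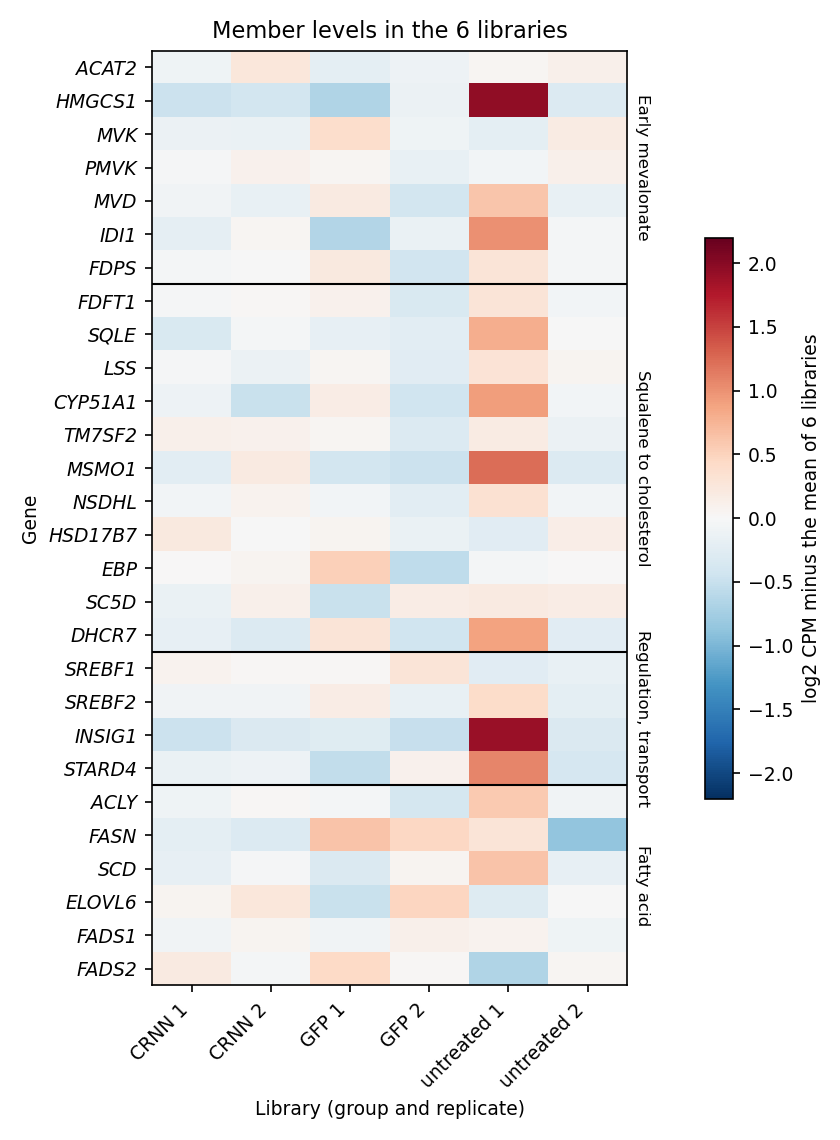
Levels of the 28 measured members (rows, by role) in the 6 libraries (columns), as log2 CPM minus the gene's mean over the libraries. Red is above and blue below that mean. Untreated replicate 1 holds the highest level of 18 of the 28 members and the lowest of 4, which are MVK, HSD17B7, SREBF1 and FADS2.

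**Figure D3:**
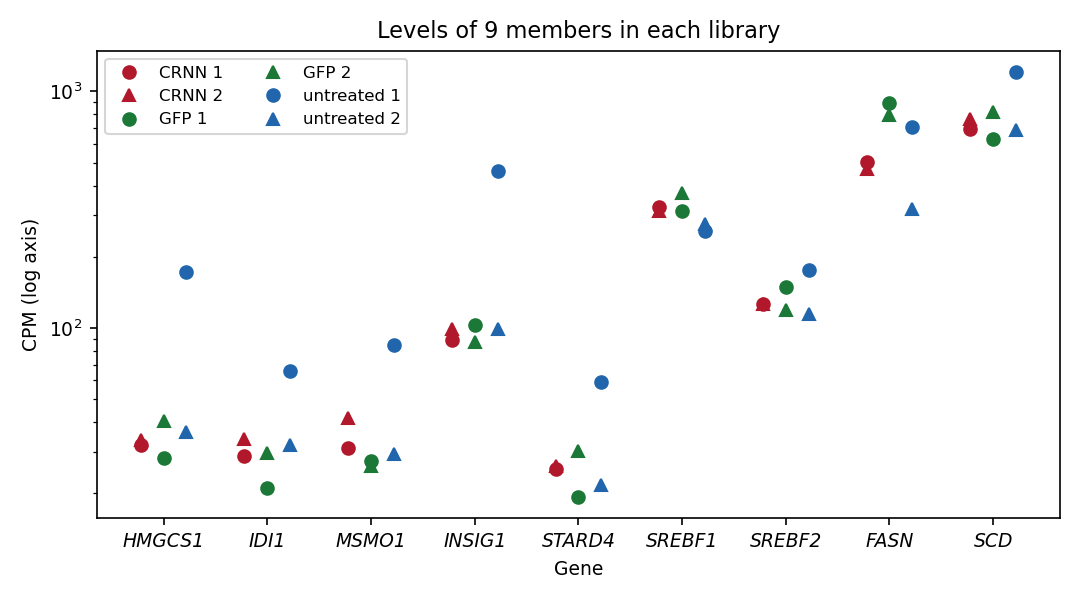
CPM (log axis) of 9 members in each library. Colours are groups, circles replicate 1 and triangles replicate 2. HMGCS1, IDI1, MSMO1, INSIG1 and STARD4 each show 1 high point, untreated replicate 1, while FASN shows both GFP libraries above both CRNN libraries.

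CRNN against GFP compares 2 transduced groups that differ in the insert. No member rose or fell by edgeR with adjustment over all genes (3 of 16396 genes did, 0.0183%), and none had an unadjusted p under 0.05 (4.39% of all genes did). The median log2 fold change of the members was 0.020, beside -0.002 for all genes, with 16 positive and 12 negative (49.9% of all genes were positive). That balance turned with the processing: 13 were positive under upper-quartile scaling, 10 once trends with GC and length were removed, and 20 without CRNN replicate 1. The groups did not overlap for ACAT2, TM7SF2 and MSMO1, which were higher in CRNN (3 of 28 members, against 19.4% of all genes), and for MVK and FASN, which were lower (2 of 28, against 18.7%). The difference with the smallest p was that of FASN, with a log2 fold change of -0.80 (SE 0.38, unadjusted p = 0.0656, adjusted p = 0.999; edgeR). The unadjusted p of FASN depended on the fit. With only the 2 groups fitted by edgeR it was 0.02 (SE 0.29, adjusted p = 0.606), where 7.31% of all genes were under 0.05. By edgeR it was 0.047 under upper-quartile scaling, 0.0441 with library totals only and 0.0349 with no filter on low counts. It was 0.0519 with DESeq2 and 0.0607 with limma-voom. The transcript of FASN is rich in G and C (65.3%). GC-rich genes stood higher in GFP replicate 1, with a rank correlation of 0.607 across 11729 genes and 0.690 across the 28 members. In GFP replicate 2 the correlations were -0.373 and -0.183, while FASN was high in both GFP libraries (894 and 796 CPM). Each correlation is over genes of 1 library, which are not replicates. Once each library's trend with GC and length had been removed, FASN had -0.41 (SE 0.33, adjusted p = 0.969; edgeR). Without GFP replicate 1 FASN was at -0.70, and without GFP replicate 2 at -0.85. The part of GC content in the FASN difference was not tested.

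The members next to FASN in order of p had unadjusted p-values from 0.299 (MVK) to 0.436 (IDI1) by edgeR. MVK had a log2 fold change of -0.32 (SE 0.29), ACAT2 0.25 (SE 0.26), MSMO1 0.44 (SE 0.44), TM7SF2 0.23 (SE 0.27) and IDI1 0.30 (SE 0.37), each with an adjusted p of 0.999 by edgeR. These SEs rest on a spread estimated from all 6 libraries, the untreated pair included. With only the 2 groups fitted, MSMO1 was at 0.43 (SE 0.26) and IDI1 at 0.30 (SE 0.27). The lowest and highest member values were those of FASN and MSMO1. By role, the medians were 0.049 for the 7 early enzymes, 0.10 for the 11 later enzymes, -0.051 for the 4 regulators and -0.006 for the 6 fatty acid genes. Single libraries moved these values: without GFP replicate 1 MVK was at -0.042, IDI1 at 0.084 and TM7SF2 at 0.42, without GFP replicate 2 MVK was at -0.51, IDI1 at 0.59 and TM7SF2 at 0.085, and without CRNN replicate 2 ACAT2 was at 0.074 and MSMO1 at 0.22. Once the trends with GC and length had been removed, MSMO1 was at 0.14 and ACAT2 at -0.051. The 13 mitochondrially encoded messenger RNAs, a sign of RNA quality, were all lower in CRNN (median -1.05), summing to 10460 and 6194 CPM in CRNN against 15100 and 11930 in GFP, and their part in these values was not tested.

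**Figure D4:**
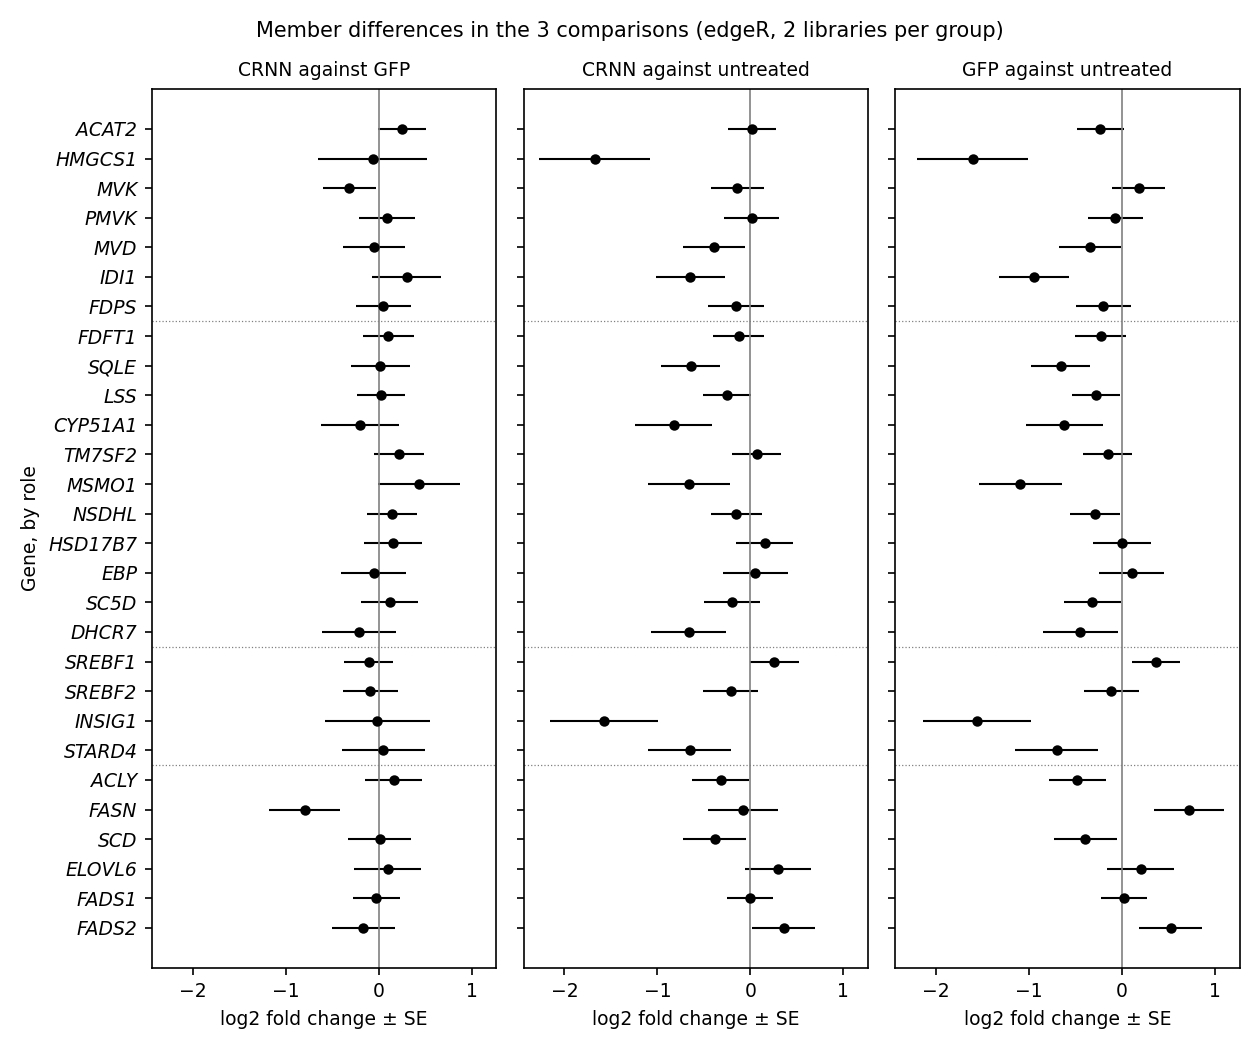
Log2 fold change with its SE (edgeR, 2 libraries per group) of each measured member in the 3 comparisons, ordered by role and divided by dotted lines. In CRNN against GFP the members lie around 0 except FASN at -0.80, and in both comparisons with untreated cells HMGCS1 and INSIG1 lie farthest to the left.

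CRNN against untreated cells adds transduction to the insert. No member passed the test over all genes, of which 1 did (0.0061%), CRNN itself. Of the 28 members, 20 were negative and 8 positive (49.1% of all genes were positive), with a median of -0.18 beside -0.009 for all genes. HMGCS1 had a log2 fold change of -1.67 (SE 0.60) and INSIG1 of -1.57 (SE 0.58), and these were the 2 members with an unadjusted p under 0.05, both lower, where 2.96% of all genes were (edgeR, adjusted p = 0.989 for each). SQLE had -0.64 (SE 0.32), CYP51A1 -0.82 (SE 0.41), IDI1 -0.65 (SE 0.37) and DHCR7 -0.66 (SE 0.40), all with the same adjusted p. Groups did not overlap for HMGCS1, SQLE, LSS, CYP51A1 and SC5D, which were lower (5 members, against 18.4% of all genes), and for SREBF1 and ELOVL6, which were higher (2 members, against 18.7%).

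These values rested on untreated replicate 1. Without it, HMGCS1 was at -0.14 (SE 0.33) and INSIG1 at -0.071 (SE 0.32), the median of the members was 0.034, and 17 were positive and 11 negative, with 15 of the 28 signs turned, among them MSMO1 (0.30), STARD4 (0.24) and FASN (0.61). Without untreated replicate 2, HMGCS1 was at -2.39 (SE 0.33, adjusted p = 0.00207) and INSIG1 at -2.29 (SE 0.32, adjusted p = 0.00237), and both fell by edgeR, where 5.39% of all genes were called. That fit assumes that the lone untreated library varies like the other groups. With all libraries but no filter on low counts, HMGCS1 fell at -1.69 (SE 0.41, adjusted p = 0.0426; edgeR). The mitochondrially encoded messenger RNAs were lower in CRNN than in untreated cells for 12 of 13 (median -0.41), and their part in these values was not tested.

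GFP against untreated cells asks what the control vector does, and it shares the untreated libraries with the comparison above. No gene passed by edgeR (0 of 16396, 0%), with 6.93% of genes at an unadjusted p under 0.05, and DESeq2 called 29 genes, none of them a member. Of the members 20 were negative and 8 positive (48.9% of all genes were positive), with a median of -0.26 beside -0.013 for all genes. HMGCS1 had a log2 fold change of -1.61 (SE 0.60), INSIG1 -1.56 (SE 0.58), IDI1 -0.95 (SE 0.37) and MSMO1 -1.09 (SE 0.45), all with an unadjusted p under 0.05 and an adjusted p of 0.711 (edgeR). They were 4 of 28 members, where 2.9% of all genes were lower at that p. The count moved with the processing. It was 6 with no filter on low counts (3.27% of all genes) and 1 with limma-voom (1.59%). Once trends with GC and length were removed it was 2 (2.68%), and 0 with the replicate block as well (2.72%). The median of the members was -0.41 without GFP replicate 1 and -0.16 without GFP replicate 2. SQLE had -0.66 (SE 0.32, adjusted p = 0.712) and FASN 0.72 (SE 0.38, adjusted p = 0.713). Groups did not overlap for 7 members that were lower (15.5% of all genes) and for SREBF1 and FASN, which were higher (16.2% of all genes). All 13 mitochondrially encoded messenger RNAs were higher in GFP than in untreated cells (median 0.70, with 9 whose groups did not overlap), and their part in these values was not tested.

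Here too the single library decided the values. Without untreated replicate 1, HMGCS1 was at -0.097 (SE 0.33), INSIG1 at -0.080 (SE 0.32), MSMO1 at -0.16 (SE 0.32) and IDI1 at -0.35 (SE 0.33), while FASN was at 1.39 (SE 0.37, adjusted p = 1 by edgeR). Without untreated replicate 2, HMGCS1 (-2.35, SE 0.33), INSIG1 (-2.29, SE 0.32), MSMO1 (-1.68, SE 0.32) and IDI1 (-1.39, SE 0.33) fell with adjusted p-values of 0.00241, 0.00241, 0.012 and 0.0333 by edgeR, where 5.45% of all genes were called. FASN was then at 0.24 (SE 0.36). With no filter on low counts HMGCS1 fell at -1.67 (adjusted p = 0.0403) and INSIG1 at -1.62 (adjusted p = 0.0479).

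Replicates of the members lay closest in the CRNN group. The median distance between replicates was 0.12 on the log2 CPM scale in CRNN, 0.36 in GFP and 0.51 in untreated cells, beside 0.19, 0.46 and 0.42 for all tested genes. Members more than 2-fold apart numbered 0 in CRNN, 1 in GFP and 7 in untreated cells (25% of members), where 4.67%, 14% and 17.6% of all tested genes were.

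Of 41 further genes of the pathways that are not members, none passed the test in any of the 3 comparisons by edgeR. In CRNN against GFP 25 were positive and 16 negative, with a median of 0.12. Of all tested genes 49.9% were positive there, with a median of -0.002. The genes that process SREBP, SCAP, INSIG2 and the proteases MBTPS1 and MBTPS2, were all negative there, with MBTPS2 at -0.64 (SE 0.33) and INSIG2 at -0.34 (SE 0.43), though INSIG2 was at 0.26 without GFP replicate 2. The 6 genes of the isoprenoid branch were all positive, among them FNTB and FNTA, subunits of farnesyltransferase, at 0.32 (SE 0.29) and 0.28 (SE 0.26). Of these 6, 4 had their lowest level in GFP replicate 1 (25.3% of all tested genes did) and 2 in GFP replicate 2 (21.3%). Of 7 genes of fatty acid oxidation 5 were positive, with HADHB, a subunit of the trifunctional protein, at 0.54 (SE 0.29) and ACADVL, an acyl-CoA dehydrogenase, at -0.46 (SE 0.26). Of 14 other genes of fatty acid metabolism 8 were positive, with ACSL1, an acyl-CoA synthetase, at 0.59 (SE 0.31) and HACD3, a dehydratase of chain elongation, at 0.26 (SE 0.27). Among 10 genes of sterol efflux and traffic, 6 were positive, with TMEM97 at 0.36 (SE 0.31) and NPC1, the lysosomal exporter of cholesterol, at -0.41 (SE 0.36). All of these had an adjusted p of 0.999 by edgeR. The GFP replicates differed here as well: without GFP replicate 1 and without GFP replicate 2, ACSL1 was at 0.29 and 0.99, HACD3 at 0.064 and 0.52, FNTA at 0.14 and 0.48, MBTPS2 at -0.90 and -0.305, and ACADVL at -0.28 and -0.59. Over all 6 libraries, 19 of the 41 had their highest level in untreated replicate 1, among them 10 of the 14 other fatty acid genes and 1 of the 7 oxidation genes, against the 27.1% of all tested genes.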

How the data were processed

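RNA-seq counts of 6 Cal27 libraries were analysed. The deposited matrix holds raw counts, whole reads per gene, with no normalization. Per the submitters' processing notes, the tools were STAR 2.6 and HTSeq 0.6.1, with bcl2fastq, FastQC 0.11.7 and edgeR also named, and the builds hg19, GRCh37 and GRCh38 are named without roles. Per the labels' protocols, libraries came from a stranded total RNA kit. Which annotation and strand option were used for counting is not given in the sources used here. Names, positions, merged exon lengths and GC content came from GENCODE 44 (GRCh38) by identifier without version, and 51996 of 57820 matched.

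Genes were kept by filterByExpr (minimum count 10, minimum total 15), which left 16396. One model held all 6 libraries, in edgeR 4.0.16 (R 4.3.3; TMM, quasi-likelihood, no covariate). Benjamini-Hochberg adjustment ran over the whole set of tested genes, with a threshold of 0.05 on two-sided tests. The SE is the size of the log2 fold change divided by the square root of F. Nothing in the labels says whether replicates came from separate cultures, so p-values measure the spread between these libraries. The procedure was tested on simulated counts.

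Members and lists were chosen with earlier results of these data known, so members are described by counts and medians beside those of all genes. All members may be named, with fold changes for those passing or the 6 smallest p-values per comparison, and 2 genes per further list by p in CRNN against GFP. Genes named by their level in untreated replicate 1 were chosen after their values were seen. Alternatives used DESeq2 1.42.0, limma 3.58.1, other scalings and filters, a replicate block, a correction of GC content and length (natural splines of 4 degrees of freedom, with values for 97.2% of tested genes) and each library left out.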

Additional observations from a re-analysis of the deposited data

How the results depend on the processing

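Over 17 alternatives, the count of members called in CRNN against GFP stayed at 0. Over all genes that comparison had 3 calls, and 34 without a filter on low counts, 21 with DESeq2, 13 with only the 2 groups fitted and 1 after the GC and length correction, and from 0 to 15 with a library left out. CRNN against untreated cells had 1 call over all genes, 152 without a filter (1 member), 7 with DESeq2, and from 1 to 957 with a library left out (0 to 2 members). GFP against untreated cells had 0 calls over all genes, 195 without a filter (2 members), 29 with DESeq2, and from 0 to 966 with a library left out (0 to 4 members). With a library left out, the median of the members ranged from -0.009 to 0.14 in CRNN against GFP, from -0.344 to 0.034 in CRNN against untreated and from -0.41 to -0.056 in GFP against untreated, and the highest value in both comparisons with untreated cells came without untreated replicate 1. With a library left out, CRNN over GFP ranged from 8.37 to 8.61 (8.36 after the GC and length correction), and missed the edgeR threshold when either GFP library was dropped (8.61 with adjusted p = 0.0754 for replicate 1, 8.37 with adjusted p = 0.115 for replicate 2).

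Among all 28 members, 12 signs turned in CRNN against GFP after the GC and length correction and 11 without GFP replicate 1, and without untreated replicate 1, 15 turned in CRNN against untreated and 7 in GFP against untreated. Of the genes named with a fold change in a comparison, signs reversed for ACAT2 in CRNN against GFP after the GC and length correction (-0.051, and -0.051 with the replicate block as well), for INSIG2 in CRNN against GFP without GFP replicate 2 (0.26, in a range from -0.76), and for DHCR7 in CRNN against untreated without untreated replicate 1 (0.018, in a range from -1.115). The cause was not tested. The labels do not say whether the replicate numbers pair the libraries. The replicate differences of 11729 genes correlated at r = 0.255 for CRNN with GFP, -0.071 for CRNN with untreated and 0.193 for GFP with untreated. Such correlations cannot settle whether the libraries were paired. With the replicate block, edgeR called 4, 1 and 0 genes in the 3 comparisons and 0 members in each, and with that block after the correction 2, 1 and 0. With upper-quartile scaling the median of all genes moved to 0.085 in GFP against untreated, and that of the members to -0.15. Depth was lowest in GFP replicate 2, where the low member CYP51A1 had 50 counts.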

Other observations

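MYLIP and ABCG1, genes that liver X receptors induce when sterol is plentiful and chosen here after their values were seen, had their lowest level in untreated replicate 1, where many sterol synthesis genes were highest. Their list of 10 genes of sterol efflux and traffic did not go 1 way in that library. There 4 of the 10 were lowest (26.3% of all tested genes were) and 3 were highest (27.1%). MYLIP, a ubiquitin ligase for lipoprotein receptors, had 9.59 CPM there and 27.8 in untreated replicate 2, against 21.3 to 35.4 in the transduced libraries. ABCG1, a sterol exporter, had 3.36 CPM there, against 5.71 to 10.5 in the other libraries. ABCA1, another exporter, stood at 29.5 and 32.4 CPM untreated and at 59.6 and 51.5 with CRNN, but its GFP replicates were at 27.3 and 88.5, so its groups overlapped for GFP. None passed in any comparison by edgeR, and the relation between these genes and the synthesis genes was not tested.

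ACSL4, which activates arachidonate and other long fatty acids, reached 137 CPM in untreated replicate 1, against 39.4 to 47.4 elsewhere. LPIN1, a phosphatidate phosphatase, had 86.4 CPM there against 29.1 to 43.9, ELOVL7 had 30.2 against 10.1 to 14.3, and NPC1 had 76.1 against 30.6 to 45.2. These genes of lipid handling, also picked by their values, were highest in the same library as HMGCS1 and INSIG1.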
